A study of Mus musculus with 4 samples.

Results

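The genes described here are 2 neurotrophins, Bdnf and Ntf3, and 6 of their receptors and co-receptors, Ntrk2, Ntrk3, Ngfr, Sort1, Sorcs1 and Sorcs2. They were chosen by symbol, all 8 were found among the 18854 genes of the deposited table, and all 8 passed the filter on low values. The RNA came from wild-type mouse cortical neurons kept in culture for 15 days and then given Nutlin-3, labelled as the p53 activator, for 2 days, or given the solvent DMSO. Nutlin-3 keeps Mdm2 from binding p53, so that p53 protein is no longer marked for degradation. The treatment field of the DMSO samples reads as untreated, and their titles, which name DMSO, were followed. There were 2 libraries per group, of total RNA depleted of ribosomal RNA. The labels do not say whether the 2 libraries of a group were grown apart, and the p-values speak only for the spread between libraries, which may be technical.

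Neurotrophins are secreted growth factors made as proneurotrophins, which are cut to the mature form inside or outside the cell. Mature BDNF binds the receptor tyrosine kinase TrkB (Ntrk2), mature NT-3 (Ntf3) binds TrkC (Ntrk3), and both feed the Ras and MAP kinase, PI3 kinase and phospholipase C arms that serve neuron survival, dendrite growth and synaptic plasticity. The uncut forms bind the p75 receptor (Ngfr) together with a member of the Vps10p family, sortilin (Sort1) or a SorCS protein, and can promote pruning and death. Sortilin also sorts BDNF into the secretory pathway and carries Trk receptors along axons. In cortex TrkB is made by neurons in a form with a kinase domain and by astrocytes in a truncated form without it, and gene-level values cannot tell the forms apart.

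Bdnf is read from several alternative first exons, each with its own promoter. RefSeq (GRCm38.p6) gives 7 windows of 300 bases around its starts, and 2 are shown because they hold a motif that bears on the comparison. The first, on the plus strand, holds the core TGACG of the cAMP response element, the binding site of CREB, in capitals as its reverse complement. The second, also on the plus strand, holds a match to the p53 decamer, the repeat unit of the p53 response element, in capitals.

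Bdnf chr2:109692186-109692485: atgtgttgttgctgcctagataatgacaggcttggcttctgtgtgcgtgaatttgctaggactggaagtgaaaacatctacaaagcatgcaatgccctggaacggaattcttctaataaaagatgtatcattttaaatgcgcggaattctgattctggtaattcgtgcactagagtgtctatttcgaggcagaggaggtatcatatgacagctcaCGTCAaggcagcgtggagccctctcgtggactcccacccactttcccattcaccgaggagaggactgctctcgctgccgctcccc

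Bdnf chr2:109722671-109722970: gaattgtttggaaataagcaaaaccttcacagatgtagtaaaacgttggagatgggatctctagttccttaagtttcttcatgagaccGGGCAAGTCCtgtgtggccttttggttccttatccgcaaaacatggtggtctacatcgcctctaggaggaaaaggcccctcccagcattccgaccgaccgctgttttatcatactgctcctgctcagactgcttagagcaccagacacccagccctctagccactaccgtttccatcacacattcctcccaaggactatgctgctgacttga

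Each motif was searched on both strands in 32851 windows of that length. The TGACG core was in 20.8% of all windows and in 1 of the 12 windows of these genes, and the p53 decamer was in 8.36% of all windows and in 1 of the 12. Besides the 7 windows of Bdnf, Ntf3 had 2 and Ntrk2, Ngfr and Sorcs1 had 1 each, while Ntrk3, Sort1 and Sorcs2 had none in the RefSeq table. A match describes the letters and says nothing of binding, and the deposited values do not separate the starts of Bdnf.

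Values are CPM, read counts scaled to a common library total, and 14584247 to 19065197 reads stood behind each library. Mitochondrially encoded RNA took 14.3% to 15.7% of the listed CPM in DMSO and 8.98% to 10.01% with the activator, and nuclear protein-coding genes took 73.6% to 75.9% and 82.7% to 83.2%. The median log2 fold change of 12763 tested protein-coding genes stood at 0.094. It was not subtracted from the changes given here. Markers of neurons were present. The 5 general neuron markers summed to 5732 to 6440 CPM in DMSO and 6478 to 6591 CPM with the activator. Map2 made up most of the sum but did not rise with it. It measured 3605 and 4121 CPM under DMSO, against 3564 and 3602 CPM under the activator (log2 fold change -0.11, not called). Single neuron markers were called higher in 3 of 5 general, 3 of 5 excitatory and 4 of 6 inhibitory cases. Among them were Tubb3 (log2 fold change 0.55), Slc17a7 (0.43) and Slc32a1 (0.58). The inhibitory marker Dlx1 (-0.26) was lower in both activator libraries but not called, and 1 general marker, Rbfox3 (-0.27), was called lower. These markers moved beside Sort1, Ntrk3 and the pathway genes described here, and their part in those results was not tested. Astrocyte RNA was also there: 10 of 10 markers were listed, with sums of 2411 to 2453 CPM in DMSO and 2774 to 2803 CPM with the activator. Of the 7 microglia markers 3 were listed and summed to 2.88 to 4.53 CPM, while Cx3cr1, Tmem119, C1qa and Itgam are no symbols of the table. In bulk RNA, fewer cells of a type and less RNA per cell cannot be told apart.

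Sort1 and Ntrk3 were higher with the p53 activator, and the other 6 genes did not pass the test. The test was limma on log2(CPM + 1) over 16654 genes, with Benjamini-Hochberg adjustment over all of them and calls at an adjusted p under 0.05. It called 16.9% of all genes higher and 16.3% lower, and among protein-coding genes 21.2% higher and 7.19% lower, so that 2 of 8 called higher and 0 lower is a share near the background. In 5 of the 8 genes both activator libraries lay above both DMSO libraries and in 0 below, beside 36.6% of all tested genes above and 30.9% below. The median log2 fold change of the 8 genes was 0.20.

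**Figure D1:**
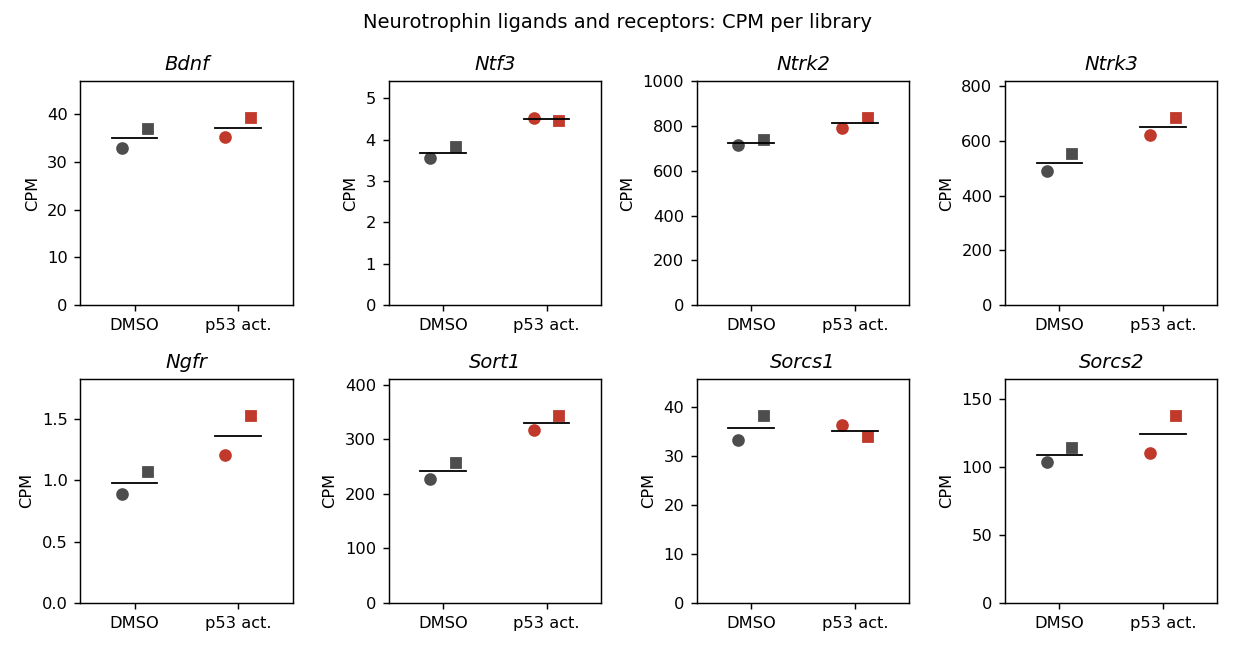
CPM (vertical axes, each from 0) of the 8 genes in the 2 DMSO libraries (grey) and the 2 p53 activator libraries (red); circles are replicate 1, squares replicate 2 and lines group means. The groups stand apart for Sort1, Ntrk3, Ntrk2, Ntf3 and Ngfr and overlap for Bdnf, Sorcs1 and Sorcs2.

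Of the ligands, Bdnf was the more abundant and changed least. Bdnf measured 32.9 and 36.9 CPM under DMSO, against 35.2 and 39.1 CPM under the activator, from 480 to 692 reads per library. The groups overlapped, since activator replicate 1 lay below DMSO replicate 2. The log2 fold change was 0.087 ± 0.096 (SE), with a limma adjusted p of 0.516 and a 95% interval from -0.10 to 0.28. That interval leaves room for a modest change in either direction. When the summed CPM of protein-coding genes was made equal across libraries (protein-coding scaling), or these genes were aligned by cyclic loess, the sign turned (-0.059 and -0.025).

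Ntf3, the ligand of TrkC, measured 3.57 and 3.81 CPM under DMSO, against 4.51 and 4.46 CPM under the activator. The groups did not overlap, but only 52 to 86 reads stood behind each value. The log2 fold change was 0.23 ± 0.18 (SE; limma adjusted p = 0.356), with a 95% interval from -0.14 to 0.59, so a difference was not detectable at this depth. Per kilobase of annotated exon, Bdnf exceeded Ntf3 2.54-fold and 2.67-fold in the DMSO libraries and 2.15-fold and 2.41-fold in the activator libraries.

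Ntrk2, which encodes TrkB, was the most abundant of the 8 genes in CPM. It measured 714 and 737 CPM under DMSO, against 791 and 834 CPM under the activator. Both activator libraries were above both DMSO libraries, by a log2 amount that compares with the 0.094 of the median protein-coding gene. The log2 fold change was 0.16 ± 0.088 (SE; limma adjusted p = 0.150; 95% interval -0.013 to 0.34). With protein-coding scaling it was 0.012, and after cyclic loess and quantile normalization it was negative (-0.065 and -0.014). The summed astrocyte markers, of which Slc1a2 and Slc1a3 made up most, were higher in both activator libraries beside it. Of the 10 markers 1 was called higher and 0 lower, and their part in the Ntrk2 value was not tested.

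Ntrk3, which encodes TrkC, rose from a mean of 520 ± 44.0 to 652 ± 42.6 CPM (SD, n = 2 each). It measured 489 and 551 CPM under DMSO, against 622 and 682 CPM under the activator. The groups did not overlap, and DMSO replicate 1 was the lowest library and activator replicate 2 the highest. The log2 fold change was 0.33 ± 0.085 (SE), with a limma adjusted p of 0.00163. The call was lost without DMSO replicate 1 (0.24, limma adjusted p = 0.0685) or without p53 activator replicate 2 (0.26, limma adjusted p = 0.101). It was also lost with protein-coding scaling (0.18, limma adjusted p = 0.0653), after cyclic loess (0.11, limma adjusted p = 0.273), after quantile normalization (0.18, limma adjusted p = 0.0554), and in limma without a trend of the spread (adjusted p = 0.0961). Per kilobase of exon, Ntrk2 exceeded Ntrk3 2.28-fold and 2.09-fold in DMSO and 1.99-fold and 1.91-fold with the activator.

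Ngfr, the p75 receptor, had few reads. It measured 0.891 and 1.07 CPM under DMSO, against 1.21 and 1.52 CPM under the activator, from 13, 16, 23 and 27 reads. The activator libraries were the higher, but the log2 fold change of 0.25 ± 0.21 (SE; limma adjusted p = 0.377) had a 95% interval from -0.17 to 0.68, so a difference was not detectable at this depth. Per kilobase of exon, Ntrk2 exceeded Ngfr by 123-fold to 143-fold in DMSO and by 97.7-fold to 117-fold with the activator.

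Sort1, which encodes sortilin, had the largest difference of the 8 genes. It measured 227 and 256 CPM under DMSO, against 316 and 343 CPM under the activator, a 1.37-fold rise from 241 ± 20.7 to 329 ± 18.4 CPM (SD, n = 2 each). The lowest activator library stood well above the highest DMSO library. The log2 fold change was 0.45 ± 0.079 (SE), with a limma adjusted p of 3.25e-06, and 98.7% of all tested genes had a lower one. The rise was called under each of the 18 other settings tried, with log2 fold changes from 0.25 after cyclic loess to 0.54 without DMSO replicate 2, and the highest adjusted p was 0.0463, in limma without a trend of the spread. With protein-coding scaling it was 0.30 (limma adjusted p = 0.000955), beside 4.34% of 12763 genes called higher and 13.1% lower. In edgeR with TMM, which called 10.7% of genes higher and 17.4% lower, it was 0.41 (edgeR adjusted p = 0.00210).

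**Figure D2:**
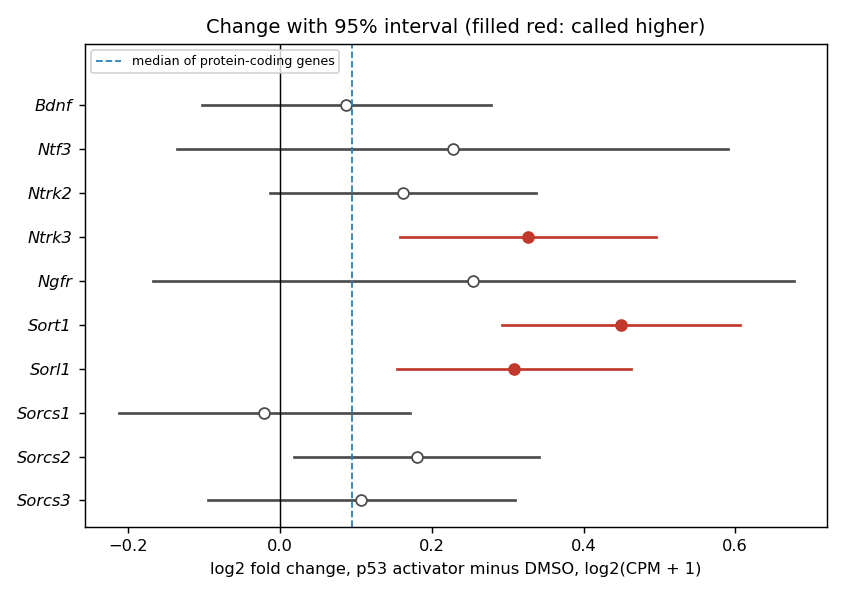
Log2 fold change on the log2(CPM + 1) scale (horizontal axis, p53 activator minus DMSO) with limma's 95% interval for the 8 genes and 2 relatives, Sorl1 and Sorcs3; filled red points were called higher and the dashed line is the median of protein-coding genes, 0.094. Sort1, Ntrk3 and Sorl1 have intervals wholly above that line.

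The SorCS receptors, which like sortilin carry a Vps10p domain, did not pass the test. Sorcs1 measured 33.3 and 38.2 CPM under DMSO, against 36.3 and 33.9 CPM under the activator, both of the latter between the DMSO libraries. Its log2 fold change was -0.021 ± 0.097 (SE; limma adjusted p = 0.887; 95% interval -0.21 to 0.17), and it turned to 0.076 without DMSO replicate 2 and 0.03 without p53 activator replicate 2.

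Sorcs2, a partner of p75 in growth cone collapse, measured 104 and 114 CPM under DMSO, against 110 and 137 CPM under the activator. Only activator replicate 2 lay above the DMSO libraries, and the groups overlapped. The log2 fold change was 0.18 ± 0.081 (SE; limma adjusted p = 0.0779). Without p53 activator replicate 1 it was 0.34 and called (limma adjusted p = 0.00456), and without p53 activator replicate 2 it was 0.023, so that 1 library decided the value.

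Of the relatives outside the set, Sorl1 was called higher. Sorl1, a Vps10p receptor that sorts cargo between Golgi and endosomes, measured 184 and 192 CPM under DMSO, against 220 and 247 CPM under the activator (log2 fold change 0.31 ± 0.078 SE, limma adjusted p = 0.00109). Its call was lost without p53 activator replicate 2 (0.22, limma adjusted p = 0.0873) and with protein-coding scaling (0.16, limma adjusted p = 0.103), and also after quantile normalization, after cyclic loess and in limma without a trend of the spread. Sorcs3 measured 26.2 and 29.5 CPM under DMSO, against 30.2 and 29.9 CPM under the activator, and was not called (limma adjusted p = 0.443). Ntf5 is not a symbol of the table.

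**Figure D3:**
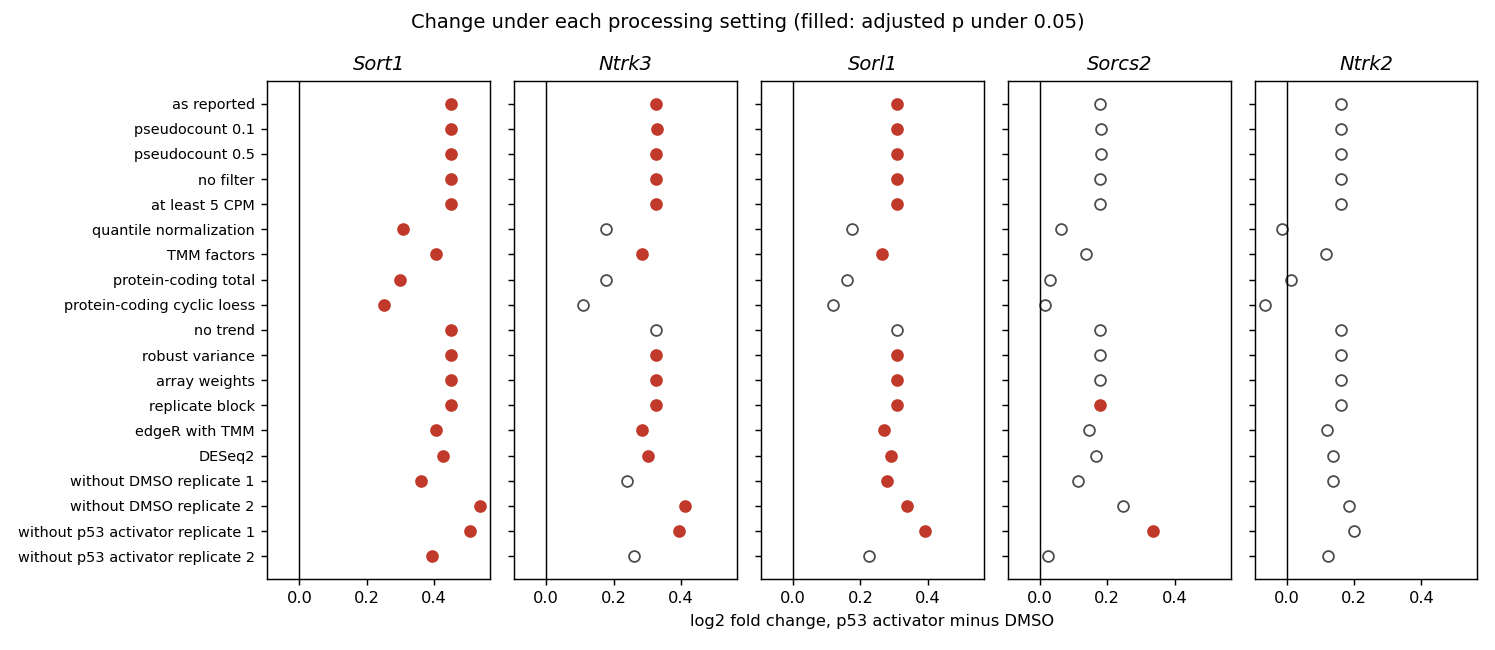
Log2 fold change (horizontal axes) of Sort1, Ntrk3, Sorl1, Sorcs2 and Ntrk2 as reported and under 18 other settings (rows); filled points had an adjusted p under 0.05. Sort1 is filled in every row, Ntrk3 and Sorl1 lose the call in several, and Sorcs2 gains it in 2.

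The level of the genes relative to each other depends on the length used. Divided by the total annotated exon length in GENCODE vM21, the mean over 4 libraries was 39.9 CPM per kilobase for Ntrk2, 37.7 for Sort1, 19.4 for Ntrk3, 13.2 for Sorcs2, 5.79 for Bdnf, 4.20 for Sorcs1, 2.38 for Ntf3 and 0.340 for Ngfr. The ranges over libraries overlapped for Ntrk2 and Sort1, at 37.0 to 43.2 and 29.9 to 45.3 CPM per kilobase, and for no other neighbours in this order. Ntrk2 was the higher of these in both DMSO libraries and Sort1 in both activator libraries, by this length. Ntrk2 and Ntrk3 have many annotated exons, 19.3 and 30.2 kilobases in all. Divided instead by the longest protein-coding transcript, Ntrk2 stood at 81.7 to 95.3 CPM per kilobase and Sort1 at 33.2 to 50.1, which no longer overlap, while Ntrk3 at 24.8 to 34.6 overlapped Sort1. Of the summed per-kilobase level of the 5 Vps10p receptors, Sort1 made up 45.6% and 46.7% in DMSO and 50.8% and 49.8% with the activator.

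Most RNAs that overlap the long receptor genes were lower with the activator, while none of their hosts fell. On GRCm38, the table lists 8 other genes that GENCODE or RefSeq places over the spans of these genes. All 8 overlap Ntrk2, Ntrk3 or Sorcs2. Of these, 7 were called lower and 0 higher. The count was 4 without DMSO replicate 1, without DMSO replicate 2, without p53 activator replicate 2 and after quantile normalization, and 5 without p53 activator replicate 1. Gm32183 and Gm31945 lost the call with any 1 library left out. These RNAs were taken up after values were seen, and all of those listed are given. Of genes not matched as nuclear protein-coding, the class of all but Psapl1, 46.3% were called lower and 2.7% higher, so a fall is common there.

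On the log2(CPM + 1) scale the largest fall was that of Gm39038, a sense intronic RNA of Ntrk3. In mean CPM Psapl1 fell further, to 0.404 of its DMSO level beside 0.446 for Gm39038, but from only 31 and 39 reads. The first 300 of 355 bases of Gm39038 in GENCODE vM21 are shown because of its rank on the log2(CPM + 1) scale.

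Gm39038: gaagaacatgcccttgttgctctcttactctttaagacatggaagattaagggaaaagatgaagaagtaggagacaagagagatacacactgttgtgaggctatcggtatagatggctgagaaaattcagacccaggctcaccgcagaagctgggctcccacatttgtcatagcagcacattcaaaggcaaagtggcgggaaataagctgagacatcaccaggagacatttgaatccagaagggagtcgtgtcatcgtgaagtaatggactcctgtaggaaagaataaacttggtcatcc

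Gm39038 measured 25.2 and 20.1 CPM under DMSO, against 11.2 and 9.03 CPM under the activator (log2 fold change -1.09 ± 0.13 SE, limma adjusted p = 2.75e-11). The ratio of Ntrk3 to Gm39038 in CPM was 19.4 and 27.4 in DMSO and 55.6 and 75.5 with the activator, which restates the opposite changes of the pair. Within Ntrk2, Gm53063 measured 23.2 and 21.8 CPM under DMSO, against 14.4 and 9.71 CPM under the activator (log2 fold change -0.87), and the opposite-strand Gm34245 at 11.9 and 9.55 CPM and at 7.45 and 6.27 CPM (-0.57). Within Sorcs2, Gm52810 measured 15.2 and 10.9 CPM under DMSO, against 5.77 and 6.77 CPM under the activator (-0.94). Psapl1, a protein-coding gene on the opposite strand, fell from 2.13 and 2.61 CPM to 0.839 and 1.07 CPM (-0.78), and Gm32183 (-0.56) and Gm31945 (-0.53) fell from under 2 CPM. Gm9885, antisense to Ntrk3, had a log2 fold change of -0.20 and was not called. The strand use of the counting is not given in the sources used here. Reads of a host and of an RNA that overlaps it can therefore not be told apart with certainty. Gm39038 lies on the same strand as Ntrk3, so strand use would not separate that pair either. Whether its reads came from unspliced Ntrk3 RNA was not tested. The strands of Gm53063, Gm52810, Gm32183 and Gm31945 relative to their hosts were not read.

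**Figure D4:**
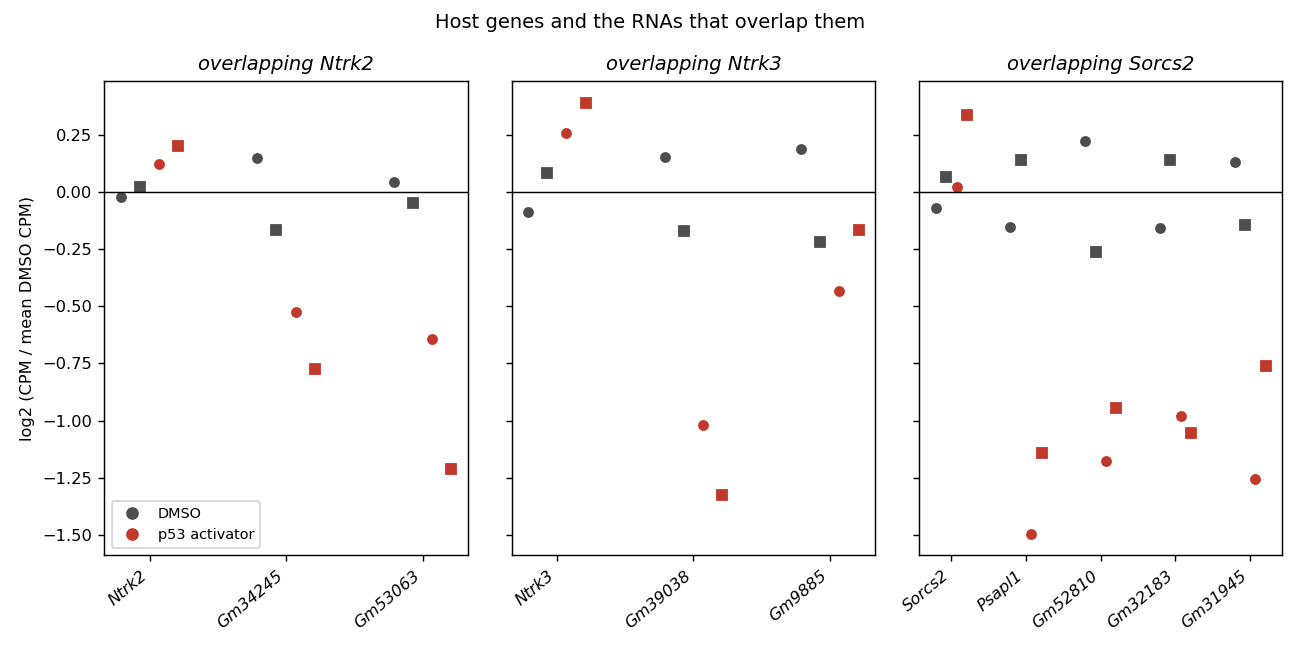
CPM in each library relative to the DMSO mean (vertical axis, log2 scale) for Ntrk2, Ntrk3 and Sorcs2 and for the listed RNAs that overlap them; grey marks DMSO, red the p53 activator, circles replicate 1 and squares replicate 2. The activator points of the hosts lie above 0 while those of 7 of the 8 overlapping RNAs lie below every DMSO point.

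Among 155 other genes of the pathway, in 10 lists, 146 were tested, 54 rose and 4 fell, with a median log2 fold change of 0.20. In such counts, here and below, rose and fell mean called higher and called lower. Regardless of calls, both activator libraries lay above both DMSO libraries in 104 of the 146 and below in 14. Of all tested genes 36.6% lay above and 30.9% below in that way. The 37.0% that rose is more than the 21.2% of protein-coding genes, the share to set beside each list below. That share was not matched to the lists for expression level or SE, and the excess was not tested. With protein-coding scaling 9 rose and 13 fell, which is 6.16% and 8.90% of those tested beside the 4.34% and 13.1% of all protein-coding genes. After cyclic loess 7 of the 146 rose (4.79%), beside 642 of all 12763 protein-coding genes, so the excess was not kept there. The lists were written with earlier results of these data known.

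Of 14 tested genes of proneurotrophin processing and secretion 6 rose (42.9%) and 1 fell. With protein-coding scaling 0 rose and 1 fell. Furin, the protease that cuts proneurotrophins in the Golgi, averaged 32.9 ± 2.08 CPM under DMSO and 41.7 ± 3.78 CPM under the activator (SD over 2 libraries; log2 fold change 0.33), and Pcsk2, a convertase of secretory granules, 276 ± 25.9 and 339 ± 19.2 CPM (0.30). Pcsk7, another convertase, fell from 29.4 ± 0.828 to 23.3 ± 0.406 CPM (-0.32). The calls of all of these were lost when DMSO replicate 1 was left out, and also when p53 activator replicate 2 was, where 0 and 1 genes of the list rose.

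Close to the receptors, 5 of 20 Trk adaptors and scaffolds rose and 1, Gab1 (-0.40), fell. The 25% that rose is near the 21.2% of all protein-coding genes. Crk, an adaptor, stood at 151 ± 0.377 and 193 ± 19.6 CPM (0.35), Sos1, which loads Ras with GTP, at 85.4 ± 2.12 and 108 ± 4.40 CPM (0.33), and Grb2, which couples Sos1 to the receptor, at 75.4 ± 1.39 and 93.2 ± 0.433 CPM (0.30). Without p53 activator replicate 1 the log2 fold change of Crk was 0.25 and its call was lost. With protein-coding scaling 1 adaptor rose and 1 fell, and the calls of Sos1 and Grb2 were lost. Of 13 genes of Trk trafficking and turnover 6 rose (46.2%) and 0 fell, and with protein-coding scaling 4 rose and 1 fell. The early endosome GTPase Rab5a (0.43) and the recycling endosome GTPase Rab11a (0.40) were called under each of the 18 other settings. Islr2, a membrane protein that binds Trk receptors, measured 40.9 and 52.2 CPM under DMSO, against 59.0 and 76.8 CPM under the activator (0.53). The call of Islr2 was lost in DESeq2 and in limma without a trend of the spread.

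Downstream, 7 of 17 genes of the Ras and MAP kinase arm rose (41.2%) and 1, Map2k5 (-0.42), fell. Map2k1, the kinase MEK1, rose from 74.1 ± 2.37 to 99.3 ± 1.54 CPM (0.42) and was called under each of the 18 other settings. Of 16 genes of the PI3 kinase and Akt arm 10 rose (62.5%) and 0 fell, with Gsk3b (0.33), Pdpk1 (0.29) and Rheb (0.34) of smallest p. Of 8 genes of the phospholipase C arm 6 rose (75%) and 0 fell, with Prkca (0.33), Itpr1 (0.26) and Prkcb (0.30) of smallest p. Without DMSO replicate 1, 3 genes of each of the first 2 arms and 1 of the third rose, and the calls of Pdpk1, Itpr1 and Prkcb were lost. Without p53 activator replicate 1, 3 genes of each arm rose and the calls of Pdpk1, Prkcb and Rheb were lost. Rheb was also lost without DMSO replicate 2, and Itpr1 without p53 activator replicate 2. With protein-coding scaling, 2, 0 and 0 genes of the arms rose and 1 of each fell, beside 4.34% and 13.1% of all protein-coding genes.

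Of 22 partners and signalling genes of p75, 9 rose (40.9%) and 0 fell. Ndn, which encodes necdin, a protein that binds p75, rose from 117 ± 7.33 to 169 ± 5.37 CPM (0.53, limma adjusted p = 3.10e-08) and was called under each of the 18 other settings. Ncstn, a subunit of the gamma-secretase that cuts p75, stood at 51.6 ± 8.24 and 70.2 ± 7.91 CPM (0.44), and Lingo1, a co-receptor of p75 for myelin inhibitors, at 188 ± 18.4 and 237 ± 27.2 CPM (0.33). Without DMSO replicate 1 the calls of Ncstn and Lingo1 were lost and 4 genes of the list rose, and without p53 activator replicate 2 that of Lingo1 was lost. With protein-coding scaling 2 genes of the list rose and 4 fell.

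**Figure D5:**
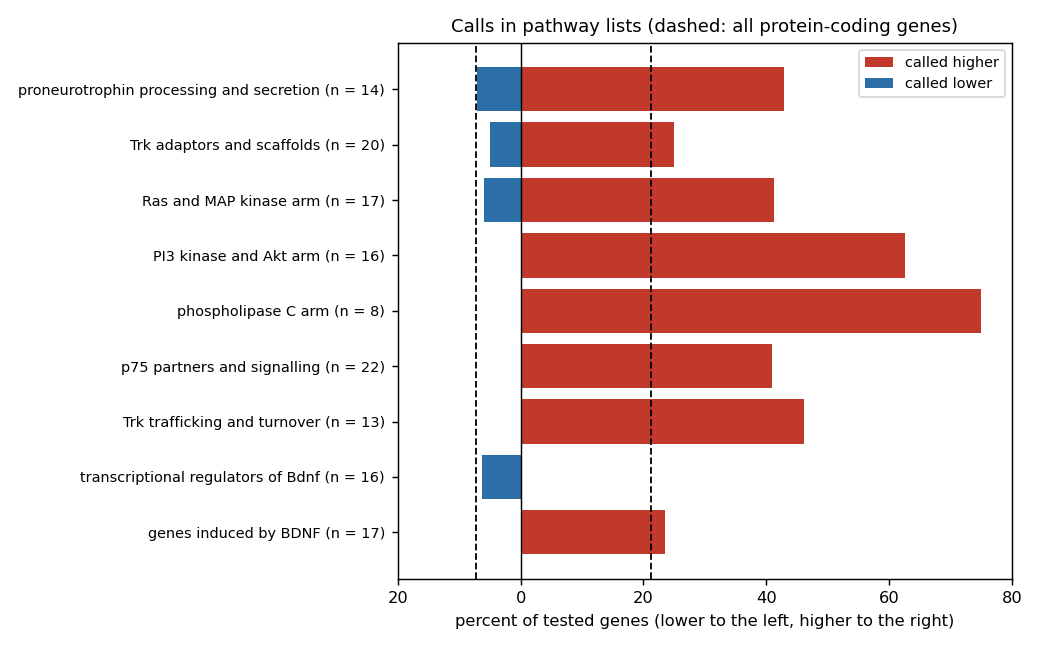
Percent of the tested genes of each pathway list that were called higher (red, to the right) or lower (blue, to the left), with the number tested in brackets; dashed lines mark the same shares of all protein-coding genes, 21.2% and 7.19%. The list of transcriptional regulators of Bdnf holds no call higher in the fit shown.

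Of 16 transcriptional regulators of Bdnf 0 rose and 1 fell. With genes under 5 CPM left out of the fit 2 rose, and without DMSO replicate 2 or p53 activator replicate 2 there was 1 that rose. With protein-coding scaling 0 rose and 3 fell. The gene that fell was Npas4, an activity-induced factor that acts at Bdnf promoters, which measured 24.5 and 26.0 CPM under DMSO, against 18.3 and 15.1 CPM under the activator. Its log2 fold change was -0.57 ± 0.12 (SE; limma adjusted p = 4.66e-05), and it was called under each of the 18 other settings, while Bdnf was called under none of them. Of 17 tested genes that BDNF induces 4 rose and 0 fell, a share of 23.5% near the 21.2% of all protein-coding genes. With protein-coding scaling 0 rose and 0 fell. Spred1 (0.26) and Dusp4 (0.34), which restrain MAP kinase signalling, and the secreted peptide precursor Vgf (0.30) had the smallest p among them, and the groups of Vgf overlapped. The calls of Spred1 and Vgf were lost without DMSO replicate 1, where 1 gene of the list rose, and those of Dusp4 and Vgf without p53 activator replicate 2, where again 1 rose. Dusp4 was also lost without DMSO replicate 2.

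By the distance between log2(CPM + 1) values centred on each gene's mean over the 4 libraries, the nearest of 10167 protein-coding genes to Sort1 were Slc7a1 and Slc7a14 (distances 0.00622 and 0.0132), which encode members of the cationic amino acid transporter family. The nearest to Ntrk3 were Maged1 (0.00811), a p75 partner on the list above, and Atrn (0.0123). Bdnf lay nearest to Rgs19 and Ptpru, Ntrk2 to Lman1 and Cndp2, Ntf3 to Caprin1 and Herpud1, Ngfr to Lrrn1 and Igsf21, Sorcs1 to Plekhm1, and Sorcs2 to Pxylp1 and Lmtk3. With 4 libraries many genes share a pattern, and the distances describe these libraries only.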

How the data were processed

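The authors deposited 1 table with a CPM column per library. No header or label names the unit, which was read from the values: each is a whole multiple of 1 step per column (100% within 0.01 reads), so whole reads were recovered. Per the submitters' processing notes, TopHat2, Cufflinks 2.0.0 and mm9 were used, with no role given; for the counter, its strand use and the annotation, nothing is given in the sources used here. Of the reads, 0.133% to 0.208% fell outside the listed genes. One read is worth 0.0525 to 0.0686 CPM.

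The filter on low values asked for 1 CPM or more in 2 or more libraries (16654 of 18854 genes). limma 3.58.1 in R 4.3.3 fitted log2(CPM + 1), which understates changes of low genes, with a trend of the spread, two-sided, Benjamini-Hochberg adjusted over all genes. There were 2 residual and 98.0 prior degrees of freedom. Alternatives included edgeR 4.0.16 and DESeq2 1.42.0 on the recovered reads. The fit was also run on simulated data with few changed genes and no shift of library composition between groups. That run therefore does not bear on the shift seen here. Gene classes and lengths came from GENCODE vM21 (15861 symbols matched), whose build differs from mm9, so the only coordinates given are those of the RefSeq windows on GRCm38.p6. Members and lists were chosen with earlier results of these data known. The genes named were the 8 members, the other genes of the neurotrophin family, up to 3 called genes of smallest p per list, and the 2 nearest profiles per member among protein-coding genes of at least 5 CPM. Some genes that this rule names are not reported here. Gab1, Map2k5 and the overlapping RNAs were named after their values were seen.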

Additional observations from a re-analysis of the deposited data

How the results depend on the processing

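Of all genes, 2811 rose and 2721 fell as reported. The numbers that rose were 1632 after quantile normalization, 1822 with TMM factors, 554 with protein-coding scaling and 642 after cyclic loess of protein-coding genes, 302 with no trend of the spread, 1786 in edgeR with TMM and 1156 in DESeq2, and 1138 to 2122 with 1 library left out. The numbers that fell were 1776 at a minimum of 5 CPM, 1666 and 1250 in the same protein-coding fits and 1585 in DESeq2, and 1445 to 2468 with 1 library left out. Of the 8 members, 2 rose as reported, 1 after quantile normalization, in either protein-coding fit and with no trend, and 1 to 3 with 1 library left out; 0 fell in any fit. Of the pathway genes, 54 rose as reported, 20 after quantile normalization, 35 with TMM factors, 9 and 7 in the protein-coding fits, 5 with no trend, 34 in edgeR and 30 in DESeq2, and 21 to 47 with 1 library left out; 4 fell as reported, 13 and 10 in the protein-coding fits and 2 to 4 with 1 library left out. The signs that turned were those of Bdnf (-0.059 and -0.025 in the protein-coding fits), Ntrk2 (-0.014 after quantile normalization and -0.065 after cyclic loess), Sorcs1 (-0.12 to 0.076 with 1 library left out), Sorcs3 (-0.039, protein-coding scaling) and Gm9885 (0.049 after quantile normalization); the cause was not tested. Protein-coding scaling moved the median protein-coding log2 fold change from 0.094 to -0.044. The labels' replicate numbers are not said to pair the libraries, and the deviations of same-numbered libraries correlated at 0.12 across genes. With the replicate block 3705 genes rose and 3132 fell, and 3 members rose, Sorcs2 (0.18, limma adjusted p = 0.0175) being the third; 77 pathway genes rose and 6 fell, among them 6 and 1 of the 16 regulators of Bdnf. With 2 libraries per group no outlying library can be tested for.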
